A study of Mus musculus with 8 samples.

Results

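Mouse bone marrow-derived macrophages that received lipopolysaccharide (LPS) and interleukin 10 (IL-10) together for 195 min were compared with untreated macrophages, gene by gene, over all 11415 genes of the deposited table. The comparison used 4 of the 8 libraries in the series, 2 with IL-10 throughout and 2 untreated. LPS, a component of the outer membrane of Gram-negative bacteria, and the cytokine IL-10 were each given at 1 ng/mL. The LPS alone group, also 2 libraries, had the same LPS dose for 195 min and no added IL-10, and its values are set beside the comparison where useful. The last group of the series, in which IL-10 was added for the final 30 min of LPS, shared in the estimate of the spread and is not described. All groups, untreated cells included, came from 129S6/SvEvTac mice that are IL10-/-RAG2-/-, and were grown from marrow precursors with M-CSF, so none could make its own functional IL-10. Per the series' text, 2 separate pools of macrophages were stimulated. The labels do not say whether the same pools served every group.

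The RNA was total RNA depleted of ribosomal RNA, and each gene had an mRNA value and a pre-mRNA value, which is the authors' measure of unspliced transcripts. Values are normalized reads, that is reads divided by the size factor of the library. Within a group, library A is the one with the larger size factor and library B the other, so the letters pair no libraries between groups or between measures. The mRNA reads of the IL-10 throughout libraries totalled 43679095 in A and 31822644 in B, and those of the untreated libraries 38368730 and 21412968. The pre-mRNA reads totalled 26272775 and 15414715 with IL-10 throughout and 25462969 and 8661271 in untreated cells. Every value below is given for library A and then library B of its group. Changes are log2 differences of normalized reads plus 1, given with the standard error (SE), and p-values are from limma with Benjamini-Hochberg adjustment over all genes of a measure. A gene is said to have risen or fallen when its adjusted p was under 0.05. Where the pre-mRNA change is set against the mRNA change, both come from the same RNA and were treated as independent. The 8 libraries named for such a difference are the mRNA and pre-mRNA columns of the same 4 libraries, left out 1 column at a time.

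LPS binds CD14 and the TLR4 and MD-2 complex, and the adaptors MyD88 and TRIF carry the signal to NF-kB, to MAP kinases and to interferon regulatory factors. NF-kB drives cytokine and chemokine genes together with its own inhibitors, while secreted type I interferon acts back on the cell through its receptor and interferon-stimulated genes. IL-10 signals through IL10RA and IL10RB, JAK1 and TYK2 to the transcription factor STAT3, and in macrophages it is known for restraining inflammatory cytokine production.

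Promoters of 5 genes whose values follow are printed to show where the binding motifs of these factors stand, and the genes were chosen after their values were seen. Each stretch runs from 250 bases before to 50 bases after the start of the gene in RefSeq (GRCm38.p6), 5′ to 3′ on the strand of the gene. Capitals mark an NF-kB motif (GGG and TTTCC with any 2 bases between them), a STAT motif (TTCNNNGAA) or an interferon-stimulated response element (2 copies of GAAA with any 2 bases between them), searched on both strands.
Il6: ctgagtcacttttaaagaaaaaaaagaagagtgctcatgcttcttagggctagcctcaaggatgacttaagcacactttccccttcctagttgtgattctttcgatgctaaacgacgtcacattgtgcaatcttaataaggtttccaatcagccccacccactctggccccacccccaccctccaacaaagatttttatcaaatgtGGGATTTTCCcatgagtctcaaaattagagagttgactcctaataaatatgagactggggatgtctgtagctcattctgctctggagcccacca
Nfkbia: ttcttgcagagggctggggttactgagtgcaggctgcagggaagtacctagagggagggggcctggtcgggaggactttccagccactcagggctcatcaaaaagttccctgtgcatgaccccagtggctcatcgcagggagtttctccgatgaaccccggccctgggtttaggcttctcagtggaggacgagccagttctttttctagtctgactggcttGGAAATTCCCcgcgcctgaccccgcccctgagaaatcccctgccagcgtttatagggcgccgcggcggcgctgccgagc
Socs3: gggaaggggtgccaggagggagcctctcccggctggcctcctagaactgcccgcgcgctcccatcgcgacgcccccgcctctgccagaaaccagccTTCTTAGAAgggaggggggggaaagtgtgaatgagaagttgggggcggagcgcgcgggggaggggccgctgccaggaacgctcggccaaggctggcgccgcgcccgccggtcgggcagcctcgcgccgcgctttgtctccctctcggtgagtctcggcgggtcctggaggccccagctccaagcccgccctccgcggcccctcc
Steap4: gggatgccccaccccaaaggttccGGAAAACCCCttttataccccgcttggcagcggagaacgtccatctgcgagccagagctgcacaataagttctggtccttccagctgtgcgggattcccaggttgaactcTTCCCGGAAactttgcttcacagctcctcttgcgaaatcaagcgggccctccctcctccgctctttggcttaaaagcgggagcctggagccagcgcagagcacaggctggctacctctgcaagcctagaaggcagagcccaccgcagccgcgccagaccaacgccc
Ifit1: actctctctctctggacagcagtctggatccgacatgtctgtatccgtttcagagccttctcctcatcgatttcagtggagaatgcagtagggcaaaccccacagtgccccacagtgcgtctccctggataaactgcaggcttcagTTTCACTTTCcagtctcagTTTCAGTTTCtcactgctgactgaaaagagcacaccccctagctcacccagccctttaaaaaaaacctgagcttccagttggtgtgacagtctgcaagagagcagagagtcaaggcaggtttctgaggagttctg
The Il6 window lies at chr5:30012864-30013163 on the plus strand, with its NF-kB motif beginning 44 bases before the start. The Nfkbia window, at chr12:55492598-55492897 on the minus strand, holds its NF-kB motif 29 bases before the start. Socs3 lies at chr11:117969317-117969616 on the minus strand and has a STAT motif 154 bases before the start. Steap4, at chr5:7960222-7960521 on the plus strand, has a STAT motif at 116 bases and an NF-kB motif at 226 bases before the start. Ifit1, at chr19:34640639-34640938 on the plus strand, has response elements at 104 and 85 bases before the start. The NF-kB letters stood in 8.52% of the 176 genes with a window whose mRNA was at least 16-fold higher with IL-10 throughout, in 1.63% of the 246 at least 4-fold lower, and in 2.04% of all 8802 genes of the table with a window. The STAT letters stood in 13.6%, 6.91% and 8.46% of these 3 sets of genes, and the response element in 11.9%, 2.85% and 4.06%. Motifs not marked above were searched too. The AP-1 letters (TGANTCA) stood in 18.2%, 6.5% and 6.31%, and the TATA box (TATAAA) in 22.7%, 13.8% and 8.61%. The sterol response element (TCACNCCAC) stood in 2.27%, 2.03% and 1.42%. A higher share among the rises was thus not particular to the marked motifs. Over all 32851 windows of this length, counted by window and not by gene, the shares were 1.63% for NF-kB, 8.3% for STAT and 3.44% for the response element. A match is a description of the letters and does not show that a factor bound there.

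Of the genes tested by mRNA 25.8% differed between the groups. By mRNA, 1626 genes rose (14.2%) and 1320 fell (11.6%) of 11415, and by pre-mRNA 1567 rose (14.1%) and 1637 fell (14.7%) of the 11131 genes with enough pre-mRNA reads to be tested. For each gene group below, these shares of all genes are the background of its counts. By mRNA 729 genes rose and 334 fell at least 4-fold, 238 rose and 20 fell at least 16-fold, and 31 rose at least 256-fold while none fell so far. The smallest mRNA count was 11 in each LPS library and 0 in each untreated library, so genes that are very low with LPS are not in the table, and the sizes of mRNA rises and falls are not compared. By pre-mRNA there were 724 rises and 680 falls of at least 4-fold and 234 rises and 98 falls of at least 16-fold. The values of the 4 libraries did not overlap between groups in 64.2% of genes by mRNA and 69.8% by pre-mRNA. Genes named below were mostly chosen with their changes seen, which favours genes without overlap. A lack of overlap is thus a description of them and no further support. The 2 measures called 1069 genes as risen and 903 as fallen in common, and 1 gene, Dirc2, rose by mRNA (0.83) and fell by pre-mRNA (−0.82), calls that were lost by both measures without IL-10 library A or untreated library A. The split between rises and falls depended on the scaling. With the authors' size factors 55.2% of the mRNA calls were rises and the median of all genes was 0.02. Scaled to total reads, the median of all genes was −0.46 and only 29.2% were rises (1037 of them, against 2518 falls). Scaled to the upper quartile 44.5% were (1335 against 1663). For pre-mRNA the shares were 48.9% with the authors' size factors, 31.5% with total reads and 45.9% with the upper quartile. Leaving out 1 library lowered the number of genes called, to 1209 without IL-10 library A, 1891 without IL-10 library B, 1557 without untreated library A and 1674 without untreated library B by mRNA. By pre-mRNA these counts were 1348, 2188, 1660 and 1803. In RNA from a whole culture, fewer cells of a type and less RNA per cell cannot be told apart.

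Nos2, Saa3, Irg1 and Cxcl11 were among the largest rises by mRNA. Nos2 (chr11:78920787-78960226), the inducible nitric oxide synthase, had 33780 and 21760 normalized reads with IL-10 throughout, against 1.32 and 1.24 in untreated cells. Only 3 untreated reads lay behind these values, and the ratio was 21850 (95% exact interval from counting error alone, 7476 to 106000). Nos2 was thus close to unread at rest and abundant in both stimulated libraries. Saa3 (chr7:46711998-46719615), an acute-phase serum amyloid protein, had 99620 and 112500 normalized reads against 54.2 and 47.2, a log2 change of 11.00 ± 0.29 (adjusted p = 1e-05). Its pre-mRNA had 33510 and 33780 normalized reads against 2.66 and 2.91, so the groups stood far apart by either measure. Irg1, which makes itaconate, had 443600 and 314700 normalized reads against 404 and 325, a change of 10.01 ± 0.30 (adjusted p = 1.2e-05). Irg1 alone took 1.14% and 0.931% of all mRNA reads with IL-10 throughout, against 0.00159% and 0.00122% in untreated cells. Cxcl11, an interferon-induced chemokine, had 2348 and 1365 normalized reads with IL-10 throughout and no read in either untreated library, which makes it at least 1467-fold higher set against 3 reads over the group as the floor. Cxcl11 is annotated as a pseudogene in the RefSeq assembly and overlaps Art3, so its reads may be shared. Ccl5, Ptgs2, Steap4, Slamf1, Socs3 and Shisa3 were among the other largest rises. The largest rises were chosen from genes whose libraries did not overlap between the groups, which held for 64.2% of all genes by mRNA. Shisa3 had 2680 and 2151 normalized reads with IL-10 throughout, against 3.97 and 1.24 in untreated cells.

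**Figure D1:**
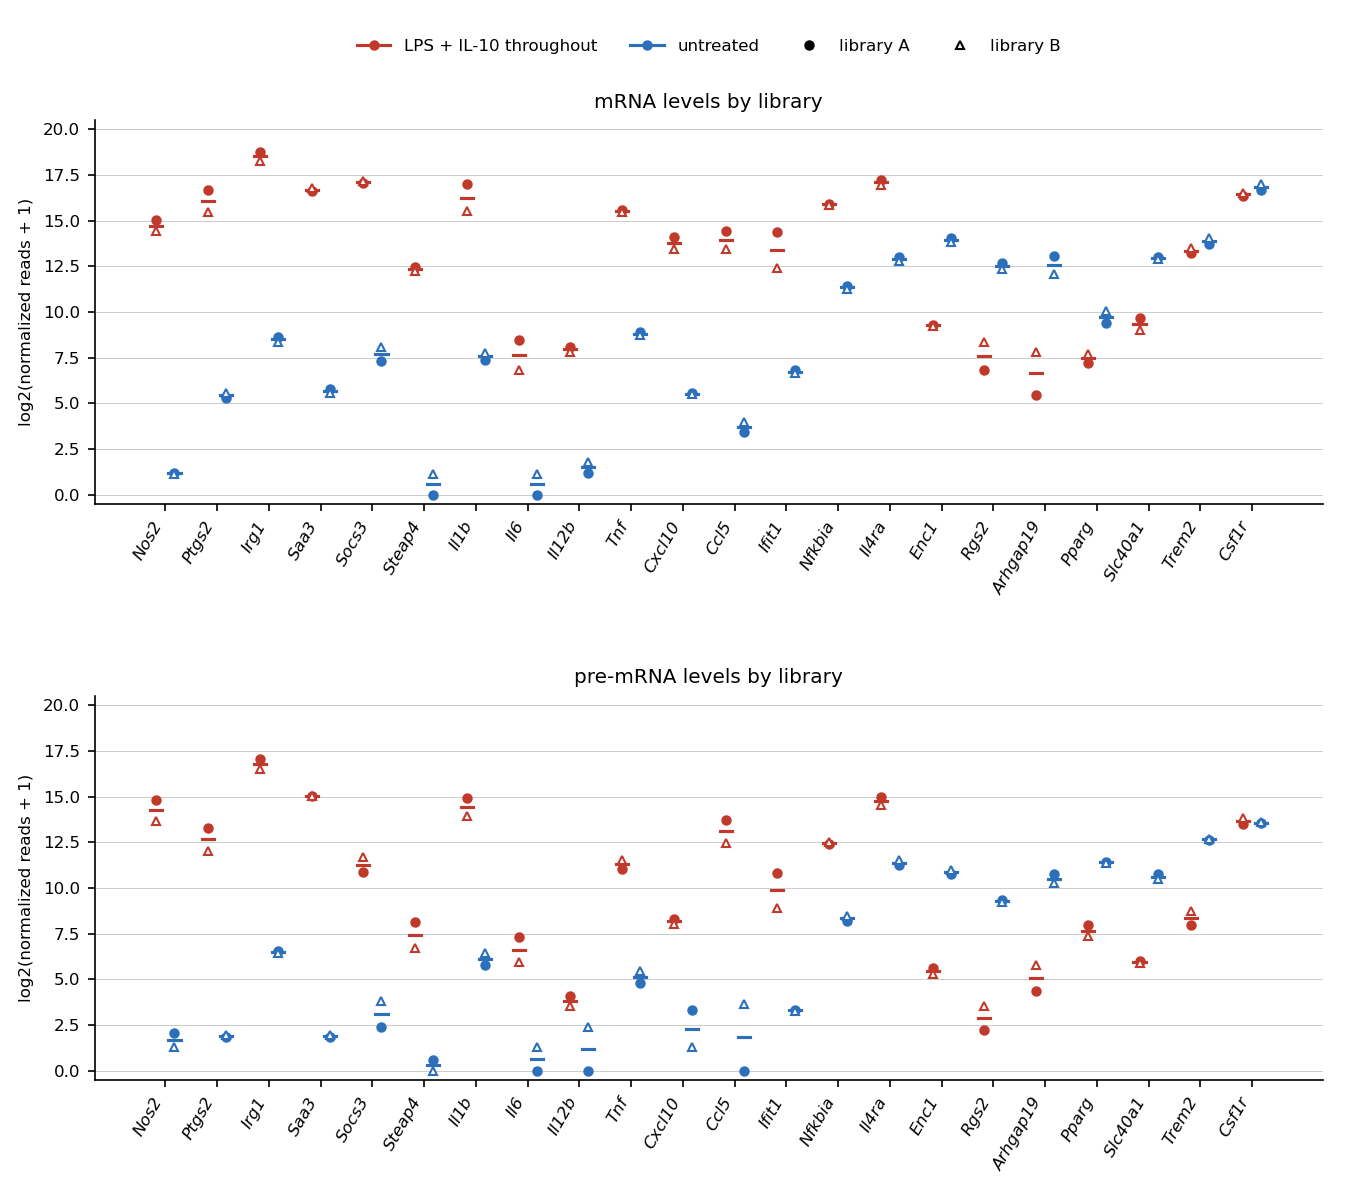
Normalized reads plus 1 on a log2 axis for 22 genes, mRNA above and pre-mRNA below, with IL-10 throughout in red left of untreated in blue, filled circles for library A, open triangles for library B and a bar at the mean. Nos2 reaches 33780 and 21760 mRNA reads with IL-10 throughout against 1.32 and 1.24 in untreated cells, while Trem2 is close between groups by mRNA and apart by pre-mRNA.

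Inflammatory cytokine genes mostly stood above the resting level with IL-10 present. By mRNA 19 of 24 measured cytokines rose, against 14.2% of all genes, and their median change was 3.84, or 3.61 with genes unread in untreated cells at their bound, against 0.02 over all genes. Tnf had 48420 and 45890 normalized reads with IL-10 throughout, against 482 and 423 in untreated cells, a change of 6.70 ± 0.19 (adjusted p = 1.2e-05). Il1b, the precursor of interleukin 1β, had 129300 and 47220 normalized reads against 164 and 217 (8.69 ± 0.59, adjusted p = 0.0002). Both genes lay more than an order of magnitude above untreated cells in every library. Il6 had 358 and 111 normalized reads with IL-10 throughout and 0 and 1.24 in untreated cells, a ratio of 568 (101.5 to 22480) that rests on 1 untreated read. Il12b, the p40 subunit shared by IL-12 and IL-23, had 269.9 and 226 normalized reads against 1.32 and 2.48 (ratio 145, interval 56.2 to 534). Il6 and Il12b were thus low in absolute reads even where they had risen. Other rises were Il1a (8.89), Tnfsf9 (6.89), Tnfsf15 (6.41), Il27 (6.36) and Csf3 (6.03). Osm, encoding oncostatin M, was the only cytokine to fall (−1.22), and it was not called without IL-10 library A or either untreated library. Il10 itself, whose functional product these cells lack, had 5212 and 923 normalized reads against 229.5 and 144, which did not pass by mRNA (3.59 ± 1.13, adjusted p = 0.057). Its pre-mRNA rose by 3.12, a call lost without IL-10 library A or either untreated library. Reads over Il10 do not test the deletion, whose position is not given in the sources used here. By pre-mRNA 14 of 23 cytokines rose, against 14.1% of all genes, with a median of 3.12, and 8 rose without IL-10 library A.

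Chemokine genes rose as a group. By mRNA 16 of 21 rose and none fell, where 14.2% and 11.6% of all genes did. The median change was 4.94, or 4.88 with unread genes at their bound. By pre-mRNA 13 of 20 rose, against 14.1% of all genes, with a median of 3.38. Ccl5, which attracts T cells and monocytes, had 22030 and 11280 normalized reads with IL-10 throughout, against 9.92 and 14.9 in untreated cells (10.22 ± 0.48, adjusted p = 6e-05). Ccl4, a macrophage inflammatory protein, had 10740 and 12670 normalized reads against 27.1 and 48.4 (8.29 ± 0.29). Their lowest stimulated library exceeded their highest untreated library by 2 orders of magnitude. The neutrophil attractants Cxcl1 (6.64 ± 0.26), Cxcl2 (6.42 ± 0.35) and Cxcl3 (7.91 ± 0.47) rose by similar amounts on the log2 scale. Cxcl10, which overlaps Art3, had 17500 and 11310 normalized reads against 45.6 and 44.7 (8.25 ± 0.53). Ccl17, Ccl24, Cxcl14, Cx3cl1 and Ccl6 did not pass by mRNA. The pre-mRNA of Ccl6 fell by 1.34, which was not called when any 1 of the 4 libraries was left out.

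Genes known to respond to IL-10 and STAT3 rose, in most cases together with the inflammatory genes. Of 24 such genes 17 rose and 1 fell by mRNA (median 2.36), and 15 rose and 1 fell by pre-mRNA (median 2.13). The shares of all genes that rose were 14.2% by mRNA and 14.1% by pre-mRNA. Socs3, a STAT3 target that blocks cytokine receptor signalling, had 133700 and 146000 normalized reads with IL-10 throughout, against 159 and 275.5 in untreated cells (9.38 ± 0.28, adjusted p = 1.2e-05). With LPS alone it had 94240 and 87520, so most of its distance from rest was present without added IL-10. Steap4, a metalloreductase, had 5598 and 4925 normalized reads with IL-10 throughout, 15.5 and 51.8 with LPS alone, and 0 and 1.24 in untreated cells. Its ratio to untreated cells was 12260 (2200 to 484300) on 1 untreated read, and it stood 7.48 ± 0.61 above LPS alone (adjusted p = 0.0057). Steap4 was thus low in reads in both groups without added IL-10. Il1rn, the IL-1 receptor antagonist, had 180200 and 77410 normalized reads against 1155 and 1179 in untreated cells (6.66 ± 0.74, adjusted p = 0.0012). Il4ra, the IL-4 receptor α chain, had 152800 and 127100 normalized reads with IL-10 throughout, 7485 and 11880 with LPS alone and 8372 and 7041 in untreated cells (4.18 ± 0.31 above untreated, adjusted p = 0.00026). The LPS alone values of Il4ra overlapped those of untreated cells. Bcl3 (3.21), Nfil3 (1.66), Pim1 (3.51), Stat3 (2.21), Sbno2 (2.50), Etv3 (2.86) and Bcl6 (1.48) also rose. The receptor genes Il10ra (−0.10) and Il10rb (−0.09) and the kinase gene Tyk2 (0.28) did not pass. The scavenger receptor gene Cd163 fell by 1.03, a call lost without either IL-10 library or untreated library A. The list also holds genes that LPS alone changes, and its median change with LPS alone against untreated cells was 0.73 by mRNA.

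**Figure D2:**
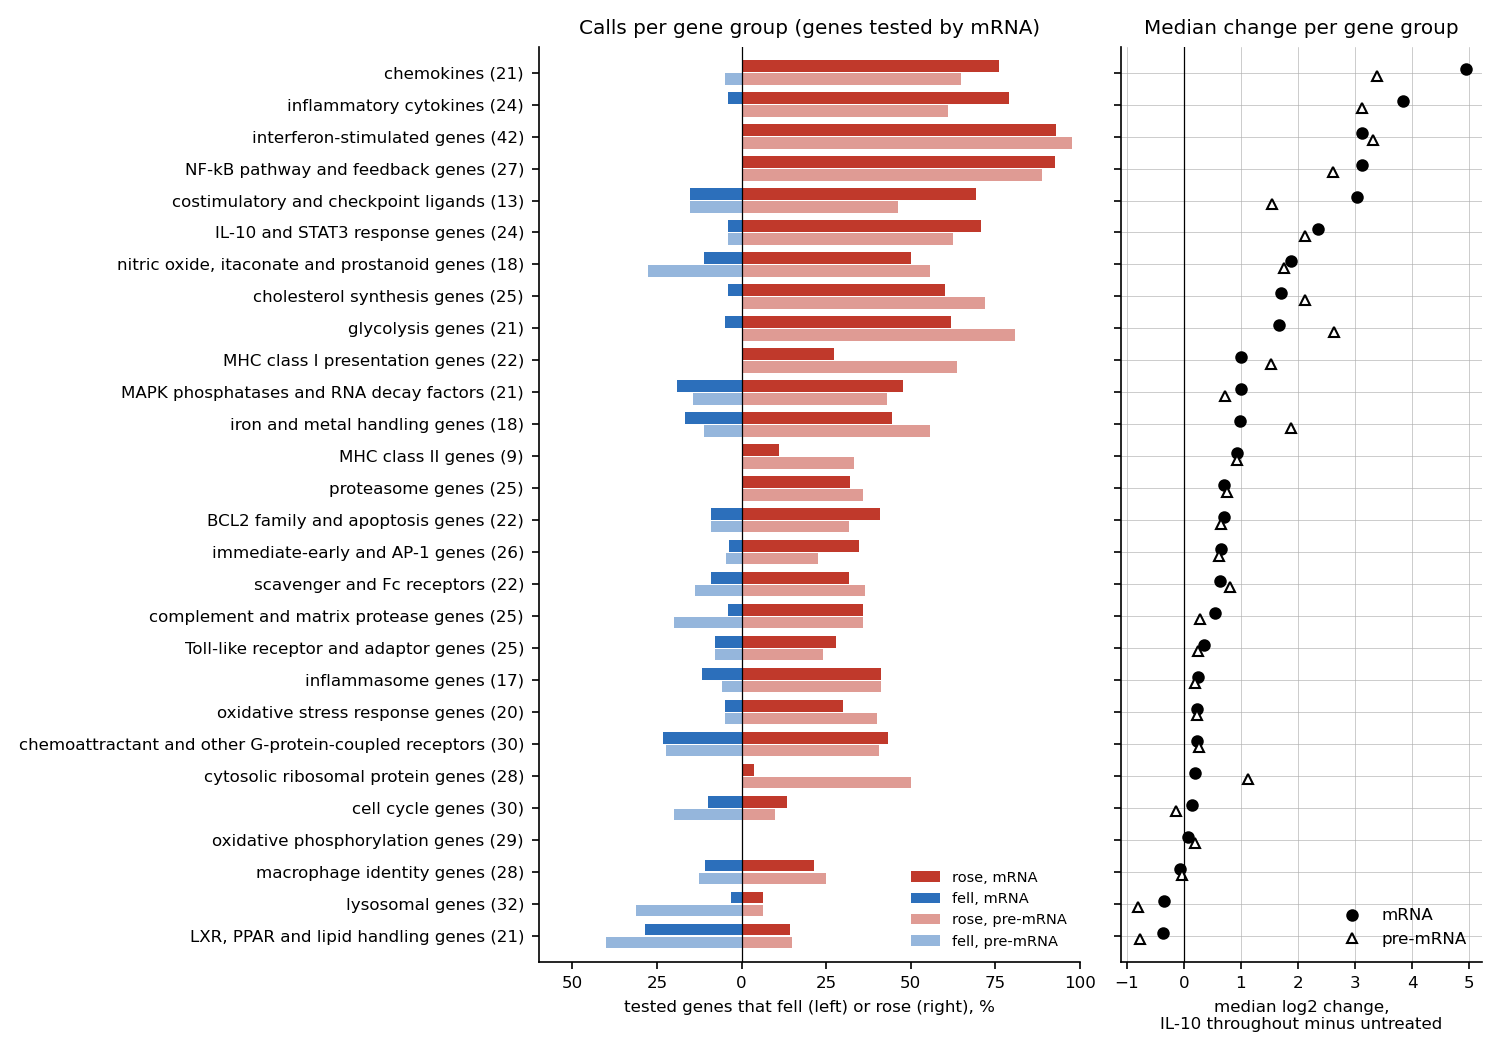
For 28 gene groups, the left panel gives the percent of tested members that rose (red, to the right) or fell (blue, to the left), dark for mRNA and pale for pre-mRNA, and the right panel gives the median log2 change (filled circles mRNA, open triangles pre-mRNA). Chemokines, with a median mRNA change of 4.94, and cytokines, at 3.84, lie at one end, while lysosomal genes, at −0.35, and lipid handling genes, at −0.37, lie at the other.

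Of 27 genes of the NF-kB pathway and its feedback inhibitors 25 rose by mRNA (median 3.13) and 24 by pre-mRNA (median 2.61), and none fell. Among all genes 14.2% rose by mRNA and 14.1% by pre-mRNA. Nfkbia, the inhibitor IκBα, had 62390 and 59370 normalized reads with IL-10 throughout, against 2733 and 2463 in untreated cells (4.55 ± 0.19, adjusted p = 3.5e-05). Its values with LPS alone were 58490 and 55460, and the difference between the stimulated groups was 0.10 (adjusted p = 0.91). Tnip3, an inhibitor that binds A20, had 63720 and 39270 normalized reads with IL-10 throughout, 6407 and 7742 with LPS alone and 903 and 834 in untreated cells (5.85 ± 0.28 above untreated). The stimulated groups lay close together for Nfkbia, while Tnip3 was higher with IL-10 throughout in both libraries (2.83 above LPS alone, adjusted p = 0.0063). Tnfaip3, encoding A20 itself (6.24), Nfkbiz (5.03), Nfkbie (4.25), Icam1 (5.06) and Traf1 (4.72) also rose. Cd40, the receptor for the T cell ligand CD40L, had 27140 and 15860 normalized reads against 99.2 and 130.3 (7.50). Birc2 and Cyld did not pass by either measure.

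Among 25 genes for Toll-like receptors and their adaptors, 7 rose by mRNA and 2 fell, against 14.2% and 11.6% of all genes. With the authors' size factors the share that fell was thus below that of all genes. The median of the 25 genes was 0.36, which turned to −0.12 with 7 falls when scaled to total reads. The pre-mRNA median was 0.25, or −0.20 with total reads. Tlr2, a receptor for bacterial lipoproteins, had 83760 and 75630 normalized reads with IL-10 throughout, against 7800 and 5537 in untreated cells (3.60 ± 0.25). The co-receptor Cd14 had 188100 and 166200 against 20570 and 32250 (2.78 ± 0.30). Tlr4, the LPS receptor, was at −0.25 and did not pass. Irak3, which restrains MyD88 signalling, had 6927 and 7844 normalized reads against 1134 and 1116 (2.71 ± 0.17), and Myd88 rose by 2.58. The nucleic acid sensors Tlr9 (−1.95) and Tlr13 (−2.25) fell. By pre-mRNA 6 rose and the same 2 sensors fell, against 14.1% and 14.7% of all genes. These 2 pre-mRNA falls became 0 without IL-10 library A or untreated library B and 1 without IL-10 library B. Among MAP kinase phosphatases and RNA decay factors 10 of 21 rose and 4 fell by mRNA (median 1.00), and 9 rose and 3 fell by pre-mRNA (median 0.73, or −0.02 without untreated library A). Dusp2 had 13840 and 8028 normalized reads against 49.6 and 144 (6.94 ± 0.49). Dusp1 (2.97), Zfp36, encoding tristetraprolin (2.83), and Zc3h12a, encoding regnase-1 (3.56), rose as well, and the tristetraprolin relatives Zfp36l1 (−2.56) and Zfp36l2 (−2.96) fell, Zfp36l1 not called without IL-10 library A or either untreated library. The 4 falls became 2 without IL-10 library A or either untreated library. The 3 pre-mRNA falls became 0 without the same libraries.

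Interferon-stimulated genes were raised almost throughout, and the 2 IL-10 libraries differed in how far. By mRNA 39 of 42 rose (median 3.13) and by pre-mRNA 41 did (median 3.31), with no fall. Ifit1, an RNA-binding antiviral protein, had 20850 and 5362 normalized reads with IL-10 throughout, against 113 and 99.3 in untreated cells (6.63 ± 0.91, adjusted p = 0.003). Gbp5, a guanylate-binding protein, had 60470 and 22640 normalized reads against 136 and 77.0 (8.48 ± 0.66). Isg15, the ubiquitin-like modifier, had 8305 and 3200 against 39.0 and 83.2 (6.47). For these genes IL-10 library A was more than 2-fold above IL-10 library B, yet both were far above untreated cells. All 42 genes were higher in IL-10 library A than in IL-10 library B, by a median of 1.39 on the log2 scale for mRNA and 1.34 for pre-mRNA, while the untreated libraries differed by −0.22 and −0.31. The count of mRNA rises fell to 16 without IL-10 library A, 15 without untreated library A and 22 without untreated library B, and was 38 without IL-10 library B. By pre-mRNA it was 27 without IL-10 library A or untreated library A. The part of this library in the result was not tested. Oasl1 (6.87) and Mx2 (6.39) were among the other rises, and Irf7 (3.37) and Stat2 (2.06) were not called without IL-10 library A or either untreated library. Oas3, Dhx58 and Bst2 did not pass by mRNA. Set beside LPS alone, the median of the list was −1.79 by mRNA, where limma called no gene (34 had an unadjusted p under 0.05, and limma-voom also called none). By pre-mRNA the median was −2.55 and 27 of 42 were called lower, against 4.26% of all genes. IL-10 library B was the lower IL-10 library for all 42 genes, and its part in the 27 was not tested. Over all genes, far fewer pre-mRNA differences from LPS alone were called without either IL-10 library, as given below. How many of the 27 remained is not given. Reads of Ifit and Gbp genes may be shared between near-identical relatives.

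By mRNA 6 of 22 genes of the MHC class I pathway rose (median 1.00) and by pre-mRNA 14 did (median 1.52). H2-Q7 had 406 and 342 normalized reads with IL-10 throughout, against 58.2 and 32.3 in untreated cells (3.07 ± 0.42), although reads can be shared among the H2-Q genes. H2-K1, a classical class I heavy chain, rose by 0.85, which was not called when any 1 of the 4 libraries was left out, and B2m passed by pre-mRNA (1.56) and not by mRNA, a difference that was not called, and its pre-mRNA call was lost without IL-10 library A or either untreated library. The immunoproteasome subunit gene Psmb8 had 4304 and 3288 normalized mRNA reads against 1382 and 2028, which missed the threshold (1.17 ± 0.35, adjusted p = 0.051), and its pre-mRNA rose by 2.50 ± 0.35, a difference between the measures that was not called. The class I count was 3 by mRNA and 5 by pre-mRNA without IL-10 library A, and 7 by pre-mRNA without either untreated library. Of 9 class II genes 1 rose by mRNA, or 3 without untreated library B. That gene was March1, a ubiquitin ligase that removes class II molecules from the surface, with 6967 and 7066 normalized reads with IL-10 throughout, 508 and 723 with LPS alone and 2240 and 1247 in untreated cells (2.07 ± 0.31 above untreated, adjusted p = 0.0041). March1 was highest with IL-10 throughout and lowest with LPS alone, with no overlap between the 3 groups. H2-Ab1 had 2096 and 4984 normalized mRNA reads against 984 and 2865, ranges that overlapped. By pre-mRNA 3 class II genes rose, or 1 without IL-10 library B. Among costimulatory and checkpoint ligands 9 of 13 rose and 2 fell by mRNA (median 3.04), and 6 rose and 2 fell by pre-mRNA. Icosl (3.79 ± 0.25), Cd274, encoding PD-L1 (4.01), Tnfsf9 and Cd40 rose. The classical ligands Cd80 (−1.46) and Cd86 (−0.41) did not pass. The checkpoint genes 4632428N05Rik, encoding VISTA (−1.81 ± 0.20), and Havcr2, encoding TIM-3 (−1.36), fell. Havcr2 was not called by either measure when any 1 of the 4 libraries was left out.

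Many genes of arginine, itaconate and prostanoid metabolism rose, and their share of falls by mRNA was near that of all genes. By mRNA 9 of 18 genes rose and 2 fell (median 1.88), where 14.2% and 11.6% of all genes did. By pre-mRNA 10 rose and 5 fell (median 1.75), where 14.1% and 14.7% of all genes did. The induced route to prostaglandin E2 was high at each step. Ptgs2, encoding cyclooxygenase 2, had 103200 and 44850 normalized reads with IL-10 throughout, against 39.0 and 45.9 in untreated cells (10.62 ± 0.44, adjusted p = 3.5e-05). Ptges, the inducible prostaglandin E synthase, had 51300 and 54210 against 95.9 and 112 (8.98 ± 0.47). Pla2g4a, the phospholipase that frees arachidonic acid, had 3427 and 3261 against 105.8 and 319 (4.18). The stimulated libraries of all 3 genes lay above both untreated libraries, and 64.2% of all genes had no overlap by mRNA. The constitutive cyclooxygenase gene Ptgs1 went the other way, with 1110 and 1517 normalized reads against 2873 and 2536 (−1.06 ± 0.29, adjusted p = 0.037), a call lost when any 1 of the 4 libraries was left out. Its pre-mRNA had 10.3 and 69.0 normalized reads against 1520 and 1314 (−5.65 ± 0.76). The leukotriene genes Alox5 (−2.08) and Alox5ap (−3.36) and the prostaglandin genes Hpgd (−4.06) and Hpgds (−2.13) fell by pre-mRNA and did not pass by mRNA, and of these 4 the difference between the measures was called for Alox5ap, and lost without each of the 8 libraries other than IL-10 library B of the pre-mRNA. The mRNA falls became 0 without IL-10 library A or untreated library B and 1 without IL-10 library B or untreated library A. The pre-mRNA falls became 2 without IL-10 library A or untreated library A and 3 without either of the other libraries, and those of Hpgd and Alox5 were not called without any 1 of the 4. Among arginine genes the transporter Slc7a2 (4.26), Arg2 (2.98) and Gch1, which makes the cofactor of nitric oxide synthase (2.23), rose, and Arg1 (1.30) did not pass.

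Most glycolysis genes rose, 13 of 21 by mRNA and 17 by pre-mRNA, with medians of 1.67 and 2.63. Pfkfb3, which makes the activator of phosphofructokinase, had 91450 and 58870 normalized reads with IL-10 throughout, 2739 and 5679 with LPS alone and 1488 and 2423 in untreated cells (5.27 ± 0.47 above untreated, adjusted p = 0.00051). Pfkfb3 stood 4.22 above LPS alone, whose libraries lay above those of untreated cells by far less. The glucose transporter gene Slc2a1 had 18760 and 17210 normalized reads against 1254 and 3071 in untreated cells (3.19 ± 0.39). Hif1a, encoding a transcription factor that drives glycolytic genes, had 31030 and 21010 against 4065 and 2999 (2.87 ± 0.29). Neither gene overlapped between groups, as for 64.2% of all genes by mRNA. Enzymes of the lower pathway rose by smaller mRNA changes, among them Pgam1 (2.13), Ldha (1.67) and Eno1 (1.34). Gpi1, Aldoa, Pkm and Pdk1 passed by pre-mRNA and not by mRNA, Aldoa not without either IL-10 library or untreated library A, and the difference between the measures was called for none of the 4. Pfkfb4 fell by 1.00 by mRNA, which was not called when any 1 of the 4 libraries was left out. Of 29 oxidative phosphorylation genes limma and limma-voom called none by either measure, and 1 by mRNA and 2 by pre-mRNA had an unadjusted p under 0.05. Their medians were 0.08 by mRNA and 0.19 by pre-mRNA. Scaled to total reads these medians were −0.41 and −0.26 and 4 fell by mRNA, and 1 rose by pre-mRNA without untreated library B.

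Most cholesterol synthesis genes rose, and several genes of cholesterol export and nuclear receptor signalling fell. In the synthesis list 15 of 25 rose and 1 fell by mRNA (median 1.71), and 18 rose by pre-mRNA (median 2.12). The pathway genes Hmgcs1 (2.69), Idi1 (3.64) and Fdps (3.38) rose. Sqle, encoding squalene epoxidase, had 5997 and 4119 normalized reads with IL-10 throughout, against 970.4 and 678 in untreated cells (2.61 ± 0.27, adjusted p = 0.00091). Cyp51, encoding lanosterol demethylase, had 7341 and 4306 against 748 and 547 (3.13 ± 0.34). The lowest stimulated library was above the highest untreated library for both, and 64.2% of all genes had no overlap by mRNA. Dhcr7 fell by 1.54, a call lost without IL-10 library A or either untreated library. In the LXR, PPAR and lipid handling list 3 of 21 rose and 6 fell by mRNA (median −0.37), and 3 of 20 rose and 8 fell by pre-mRNA (median −0.76). The shares that rose were near those of all genes, 14.2% by mRNA and 14.1% by pre-mRNA. The shares of all genes that fell were 11.6% and 14.7%. Abcg1, a cholesterol exporter, had 1666 and 3103 normalized reads with IL-10 throughout, against 11810 and 15330 in untreated cells (−2.56 ± 0.37, adjusted p = 0.0036). Pparg, a nuclear receptor of lipid metabolism, had 149 and 206 against 678 and 1076 (−2.28 ± 0.31). Rxra, the shared partner of LXR and PPAR (−2.34), Npc1 (−1.32) and Cyp27a1, which makes 27-hydroxycholesterol (−1.85), also fell. Ch25h, which makes 25-hydroxycholesterol, went up, with 5134 and 3459 normalized reads against 12.6 and 3.72 (9.04), and the exporter gene Abca1 rose by 1.16, a call lost without either IL-10 library or untreated library B. The 3 mRNA rises became 1 without either IL-10 library or untreated library B, and the 3 pre-mRNA rises became 1 without IL-10 library A.

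Of 32 lysosomal genes few passed by mRNA and 12 by pre-mRNA. By mRNA 2 rose and 1 fell (median −0.35), and by pre-mRNA 2 rose and 10 fell (median −0.81). Scaled to total reads, 17 fell by mRNA and 15 by pre-mRNA. The pre-mRNA falls became 6 without IL-10 library A. Ctsc, encoding cathepsin C, was an exception, with 18010 and 21670 normalized mRNA reads with IL-10 throughout, against 2948 and 2253 in untreated cells (2.94 ± 0.22). Lipa, the lysosomal acid lipase gene, fell by 0.86 by mRNA, which was not called when any 1 of the 4 libraries was left out, and by 2.69 ± 0.21 by pre-mRNA. Lgmn, encoding the protease legumain, had 435.9 and 435.8 normalized pre-mRNA reads against 6175 and 5918 (−3.79 ± 0.19, adjusted p = 4e-05), while its mRNA did not pass (−0.88 ± 0.38, adjusted p = 0.14). Gpnmb (−2.92) and Atp6v0d2 (−4.37) fell by pre-mRNA and did not pass by mRNA, as did Ctsd (−2.88), not called without IL-10 library A or either untreated library, and Psap (−2.08), not called without IL-10 library A. The difference between the measures was called for Lgmn and Lipa and not for Gpnmb, Atp6v0d2, Ctsd or Psap. That of Lipa was lost without any 1 of the 8 libraries of both measures, and that of Lgmn without either pre-mRNA untreated library, mRNA untreated library B or IL-10 library A of either measure. The mRNA rises became 1, and the mRNA fall 0, without any 1 of the 4 libraries, and the pre-mRNA rises became 1 without either IL-10 library or untreated library A.

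The iron exporter gene fell, and some importer and metal-binding genes rose. By mRNA 8 of 18 rose, 3 fell and 7 did not pass (median 0.98), and by pre-mRNA 10 rose and 2 fell (median 1.88). Slc40a1, encoding the iron exporter ferroportin, had 820 and 516 normalized reads with IL-10 throughout, against 8312 and 7554 in untreated cells (−3.60 ± 0.26, adjusted p = 0.00023). Slc39a14, a zinc and iron importer, had 49190 and 34340 against 985 and 1259 (5.20 ± 0.24). Mt1, a metal-binding metallothionein, had 27800 and 25970 against 1787 and 1821 (3.90). The exporter gene was lower and both other genes were higher in every stimulated library. Fth1, the ferritin heavy chain gene, had 309600 and 422700 normalized reads against 168700 and 354500, which overlapped and did not pass (0.56). Lcn2, which binds bacterial siderophores (7.63), Mt2 (7.32), Cp, encoding ceruloplasmin (5.47), and the importer gene Slc11a2 (2.79) rose. Steap3 (−1.49) and Aco1 (−0.76) fell, Aco1 not without either IL-10 library or untreated library B. Hp, encoding haptoglobin, had 2543 and 8033 normalized reads with IL-10 throughout, 180 and 122 with LPS alone and 37.0 and 44.7 in untreated cells (6.76 ± 0.68 above untreated).

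Most macrophage identity genes did not pass. Of 28 such genes 6 rose and 3 fell by mRNA, where 14.2% and 11.6% of all genes did (median −0.07, or 0.04 without IL-10 library B). By pre-mRNA 6 rose and 3 fell of 24, where 14.1% and 14.7% of all genes did (median −0.03, or 0.23 without IL-10 library A and 0.02 without untreated library B). Csf1r, the M-CSF receptor, had 83290 and 93560 normalized reads with IL-10 throughout, against 104500 and 129500 in untreated cells, which did not pass (−0.40 ± 0.26, adjusted p = 0.30). Mertk, a receptor for the clearance of dying cells, had 405 and 277 against 5049 and 3083 (−3.55 ± 0.49), and its ligand gene Gas6 fell by 1.43, a call lost without IL-10 library B or untreated library B. Csf1r remained high, while Mertk was about an order of magnitude lower in both libraries. The mRNA falls became 1 without untreated library B. Among scavenger and Fc receptors 7 of 22 rose and 2 fell by mRNA (median 0.63), and 8 rose and 3 fell by pre-mRNA (median 0.81). The shares that fell were near those of all genes. The scavenger receptor gene Msr1 had 48640 and 36440 normalized reads against 5965 and 6037 (2.81 ± 0.26), and the inhibitory Fc receptor gene Fcgr2b had 29590 and 27500 against 3149 and 2809 (3.26 ± 0.19). Olr1 (7.41) and the mycobacterial sensor gene Clec4e (5.28) rose. Marco rose by 4.36 by mRNA, a call lost without either untreated library or IL-10 library B, and by 8.41 by pre-mRNA. The falls, of Scarb2 (−1.21) and Cd163, became 1 without either IL-10 library or untreated library A, and the pre-mRNA falls became 1 without the same libraries.

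Arhgap19, Rgs2, Arrdc3 and Enc1 were among the largest falls by mRNA. Arhgap19, a GTPase-activating protein, had 43.8 and 226 normalized reads with IL-10 throughout, against 8474 and 4281 in untreated cells (−5.90 ± 0.82, adjusted p = 0.003). Rgs2, a regulator of G-protein signalling, had 112 and 331.5 against 6477 and 5144 (−4.90 ± 0.47, adjusted p = 0.00066). Both fell in each library by more than 10-fold, although the IL-10 libraries differed from each other. Enc1 (chr13:97241105-97253040), an actin-binding Kelch protein, had 631 and 607 normalized reads with IL-10 throughout, 1887 and 1524 with LPS alone and 16880 and 14480 in untreated cells (−4.66 ± 0.19, adjusted p = 3.5e-05). Enc1 was lowest with IL-10 throughout, at −1.45 against LPS alone (adjusted p = 0.014), a difference lost when any 1 of those 4 libraries was left out. Arrdc3, an arrestin-domain adaptor, had 204 and 191 against 7268 and 4787 (−4.89 ± 0.47). Abhd15 (−4.72), which overlaps Taok1, Dfna5 (−4.69), which overlaps Mpp6, the ubiquitin ligase gene Rnf144b (−4.66) and the zinc finger gene Zfp395 (−4.58) fell by similar amounts on the log2 scale. Cnr2, the cannabinoid receptor of immune cells, fell by 5.14, a call lost without either untreated library or IL-10 library A. Tmem86a fell by 5.15, a call lost without untreated library A. The table leaves out genes that are very low by mRNA with LPS, so the sizes of falls are not compared between the measures. Zfyve28 had 60.5 and 51.8 normalized pre-mRNA reads against 4234 and 3847 (−6.15 ± 0.25, adjusted p = 1.8e-05), and Tmem154 had 28.0 and 57.2 against 3612 and 6782 (−6.91 ± 0.42). Tmem154 lies within Gm37240 on the opposite strand. Cd28, best known as a T cell costimulatory receptor, had 313 and 211.5 normalized mRNA reads against 3317 and 5487 (−4.05 ± 0.39).

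For most genes the 2 measures moved alike. Among the 1583 genes that rose by mRNA and were tested by both measures, the median change was 1.79 by mRNA and 1.60 by pre-mRNA, and 1553 had a positive pre-mRNA change. Among the 1300 that fell, the medians were −1.44 and −1.65, and 1291 had a negative pre-mRNA change. The difference between the 2 changes, pre-mRNA minus mRNA, was called above 0 in 13 genes (0.117%) and below 0 in 60 (0.539%). Of the 60 genes 31 fell by pre-mRNA with no call by mRNA and 22 fell by both. Trem2 (chr17:48346401-48352276), a lipid-sensing receptor, had 9636 and 11390 normalized mRNA reads with IL-10 throughout, against 13490 and 16900 in untreated cells. Its pre-mRNA averaged 337.5 normalized reads with IL-10 throughout, against 6504 in untreated cells, and both libraries were low with IL-10 throughout, so the mRNA was close between groups and the pre-mRNA was not. The changes were −0.53 ± 0.21 and −4.31 ± 0.49, and differed by −3.79 (adjusted p = 0.015). Ccnd3, encoding cyclin D3, had 967 and 1259 normalized mRNA reads against 980 and 1087, and 138 and 161 normalized pre-mRNA reads against 2147 and 1179 (difference −3.50, adjusted p = 0.0025). Fcgrt, the neonatal Fc receptor gene, differed by −4.38 (adjusted p = 0.0021), and Cyp27a1 by −3.97 (adjusted p = 0.0069). Fcrls pre-mRNA had no read with IL-10 throughout, against 82.6 and 46.6 normalized reads in untreated cells, which makes it at least 55.5-fold lower, while its mRNA did not pass (−0.41). The 3 genes of complement C1q, C1qa (−2.01), C1qb (−2.43) and C1qc (−2.75), fell by pre-mRNA, and their mRNA did not pass (0.47, 0.16 and −0.08). The difference between the measures was called for C1qa (adjusted p = 0.05 as rounded, just under the threshold) and not for C1qb or C1qc. That of C1qa was lost without each library other than untreated library A of the mRNA. The pre-mRNA fall of C1qa was not called without IL-10 library A or untreated library A, and C1qb not without those or untreated library B. The called differences of Ccnd3, Fcgrt and Fcrls remained without any 1 of the 8 libraries, that of Cyp27a1 was lost without IL-10 library A of the mRNA, and that of Trem2 was lost without each library other than IL-10 library B of the pre-mRNA.

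In 7 of the 60 genes the mRNA had risen. Serpina3g, a protease inhibitor gene, rose by 5.32 by mRNA with a pre-mRNA change of −0.27 that did not pass. Ptx3, encoding a soluble pattern recognition protein, rose by 8.40 by mRNA and 5.75 by pre-mRNA. In the other direction, Acat3 had 1757 and 1799 normalized mRNA reads with IL-10 throughout, against 377 and 379 in untreated cells, and 1948 and 1794 normalized pre-mRNA reads against 87.9 and 64.1 (difference 2.39, adjusted p = 0.0028). Acat3 overlaps Tcp1, which is also among the 13. Pgk1, a glycolytic kinase gene, rose by 1.89 by mRNA and 4.10 by pre-mRNA (difference 2.21, adjusted p = 0.039), and Fdft1, a cholesterol synthesis gene that overlaps Ctsb, did not pass by mRNA and rose by 2.98 by pre-mRNA. Syn1 (chrX:20860511-20920918) had 4510 and 3324 normalized pre-mRNA reads against 198 and 353, with mRNA that did not pass. Timp1 (chrX:20870166-20874737) lies within Syn1 on the opposite strand and rose by 8.15 by mRNA. The libraries kept the strand, but the strand setting of the authors' counting is not given in the sources used here, so reads of Syn1 and Timp1 may be shared. Igsf6 lies within Mettl9 in the same way, and the pre-mRNA rise of Mettl9 (2.39) was not called without IL-10 library A. Other genes named in this report overlap a neighbour too, not always marked where they are named. Among them are Shisa3 (Atp8a1) and 4632428N05Rik (within Cdh23) on opposite strands. Myd88 (within Slc22a14) and Hif1a (Gm49321) overlap on the same strand. Their reads may be shared as well. The difference of Acat3 remained without any 1 of the 8 libraries, those of Fdft1 and Ptx3 were lost without each, and those of Pgk1, Syn1, Serpina3g and Tcp1 without 5 or more. The count of 73 called differences was between 16 (without IL-10 library A of the mRNA) and 60 (without IL-10 library B of the pre-mRNA) when 1 library was left out, and 48 with total-read scaling. With the upper quartile 31.3% of the differences were above 0 (20 against 44 below), against 17.8% with the authors' size factors.

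**Figure D3:**
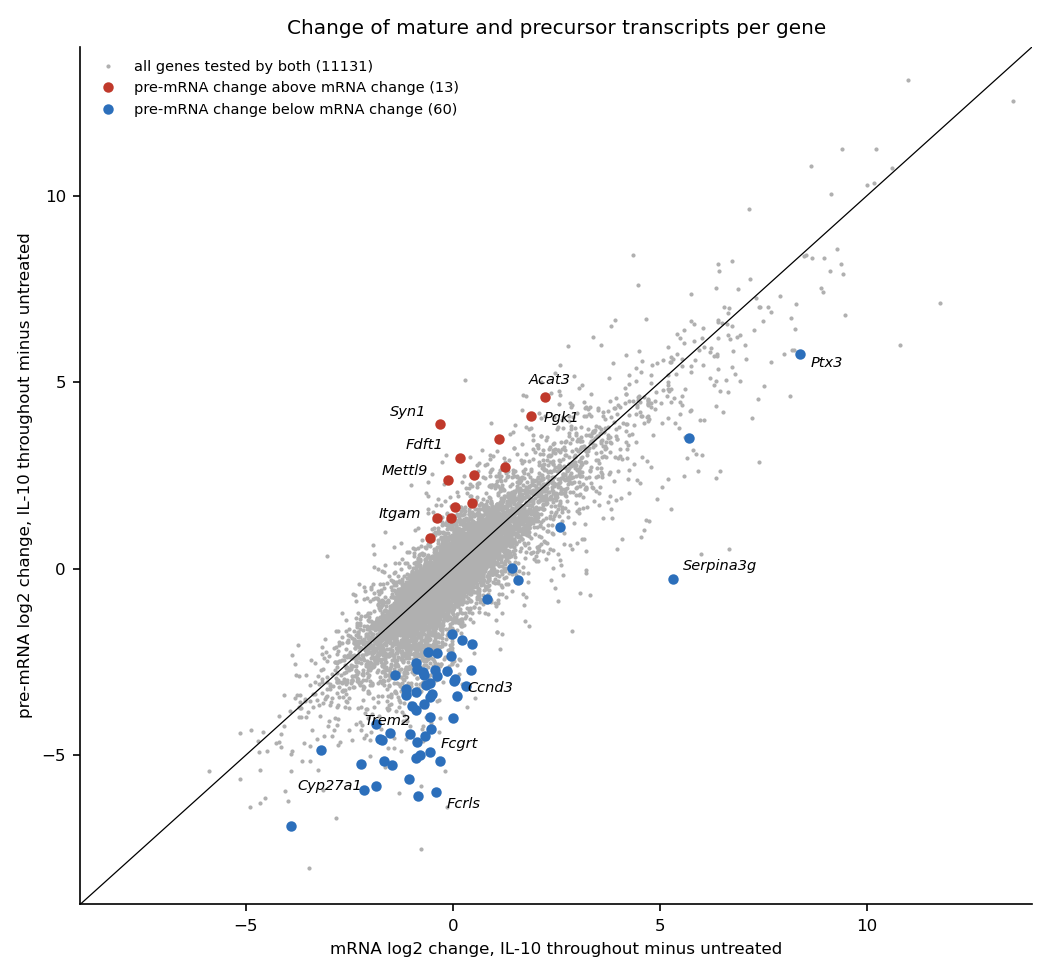
Each of 11131 genes by its mRNA log2 change (x axis) and pre-mRNA log2 change (y axis) with IL-10 throughout against untreated, with the diagonal of equal change. The 13 genes with a called difference above 0 are red and the 60 below 0 are blue. The blue genes include Serpina3g, at 5.32 by mRNA, and Fcrls, at −5.98 by pre-mRNA.

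The LPS alone libraries show which of these distances from rest also differed from LPS alone. This further contrast shares the IL-10 throughout libraries with the comparison above, so the values of each are given side by side. With IL-10 throughout, 136 mRNAs were above their LPS alone level (1.19%) and 120 below it (1.05%), and the pre-mRNA counts were 272 above (2.44%) and 474 below (4.26%). Scaled to total reads the share of higher genes by pre-mRNA was 52.6% (387 against 349), against 36.5% with the authors' size factors, and the median of all genes shifted by 0.46. Some genes were above both other groups. Slamf1, a receptor of the SLAM family, had 4574 and 2043 normalized mRNA reads with IL-10 throughout, 10.18 ± 0.88 above untreated cells and 5.26 above LPS alone (adjusted p = 0.036). Timp1, an inhibitor of matrix proteases, had 4312 and 2700 with IL-10 throughout, 68.0 and 252.1 with LPS alone and 13.9 and 8.69 in untreated cells. Rnd1, a small GTPase, had 14720 and 9160 with IL-10 throughout, 599 and 766 with LPS alone and 10.6 and 23.6 in untreated cells. For both genes the IL-10 throughout libraries were the highest of the 3 groups without overlap. Ggta1, which makes the α-galactosyl sugar epitope, had 32280 and 25290 with IL-10 throughout, 1224 and 1436 with LPS alone and 7438 and 6719 in untreated cells (2.01 ± 0.20 above untreated). Gpr35, a G-protein-coupled receptor, had 1176 and 1142 with IL-10 throughout, 19.6 and 21.0 with LPS alone and 151 and 494 in untreated cells. Its rise over untreated cells (2.08 ± 0.53, adjusted p = 0.029) was not called without untreated library A or either IL-10 library. With LPS alone Ggta1 and Gpr35 were thus below rest, and with IL-10 throughout above it. Hp, Kif1a and Pfkfb3 were also above both groups. Of the differences from LPS alone named here and above by mRNA, those of Steap4, Il4ra, Tnip3, March1, Rnd1, Ggta1 and Gpr35 were called without any 1 of the 4 libraries. Those of Slamf1 and Kif1a were lost without each of the 4, that of Timp1 without either IL-10 library or LPS library A, that of Hp without IL-10 library B or either LPS library, and that of Pfkfb3 without IL-10 library A.

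Another set stood between the 2 other groups, above untreated cells and below LPS alone. Il12b had 269.9 and 226 normalized mRNA reads with IL-10 throughout, 28760 and 65670 with LPS alone and 1.32 and 2.48 in untreated cells, at −7.45 against LPS alone (adjusted p = 0.0044). Il6 had 358 and 111 with IL-10 throughout, 6006 and 17660 with LPS alone and 0 and 1.24 in untreated cells, at −5.69 against LPS alone (adjusted p = 0.029). Their IL-10 throughout libraries sat nearer to rest than to LPS alone in normalized reads, without overlapping either. On the log2 scale Il6 was at 7.06 against untreated cells and −5.69 against LPS alone, and Il12b at 6.45 and −7.45. On that scale Il6 lay nearer to LPS alone. Cxcl3 had 5678 and 1927 with IL-10 throughout, 48850 and 49100 with LPS alone and 14.6 and 11.2 in untreated cells. Tnf, with 216700 and 215000 normalized reads with LPS alone, was at −2.20 ± 0.19 against that group (adjusted p = 0.0057), and Ccl2 was at −3.93. Lif, a cytokine of the IL-6 family, was 3.17 ± 0.66 above untreated cells (adjusted p = 0.015), not called without untreated library A or IL-10 library B, and at −5.16 against LPS alone. By pre-mRNA Tnc, encoding tenascin C, was at 4.78 against untreated cells and −4.77 against LPS alone, and Timd4, a phosphatidylserine receptor gene, at 4.38 and −4.41. The differences from LPS alone of Il12b and Tnf were called without any 1 of the 4 libraries, and that of Il6 was lost without each. That of Ccl2 was lost without LPS library B or either IL-10 library, those of Tnc and Timd4 without LPS library A or either IL-10 library, that of Lif without LPS library A or IL-10 library A, and that of Cxcl3 without either LPS library. Sema6d, a semaphorin gene, was below both groups, with 56.3 and 49.9 with IL-10 throughout, 745 and 672 with LPS alone and 224 and 325 in untreated cells (−2.32 ± 0.26 against untreated, adjusted p = 0.0012). Fam43a was below both as well (−1.74 against untreated), a call lost without untreated library B or IL-10 library B. The 256 genes called against LPS alone by mRNA became 60 without IL-10 library A, 51 without IL-10 library B, 85 without LPS library A and 43 without LPS library B. By pre-mRNA the 746 became 161, 62, 161 and 1152.

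**Figure D4:**
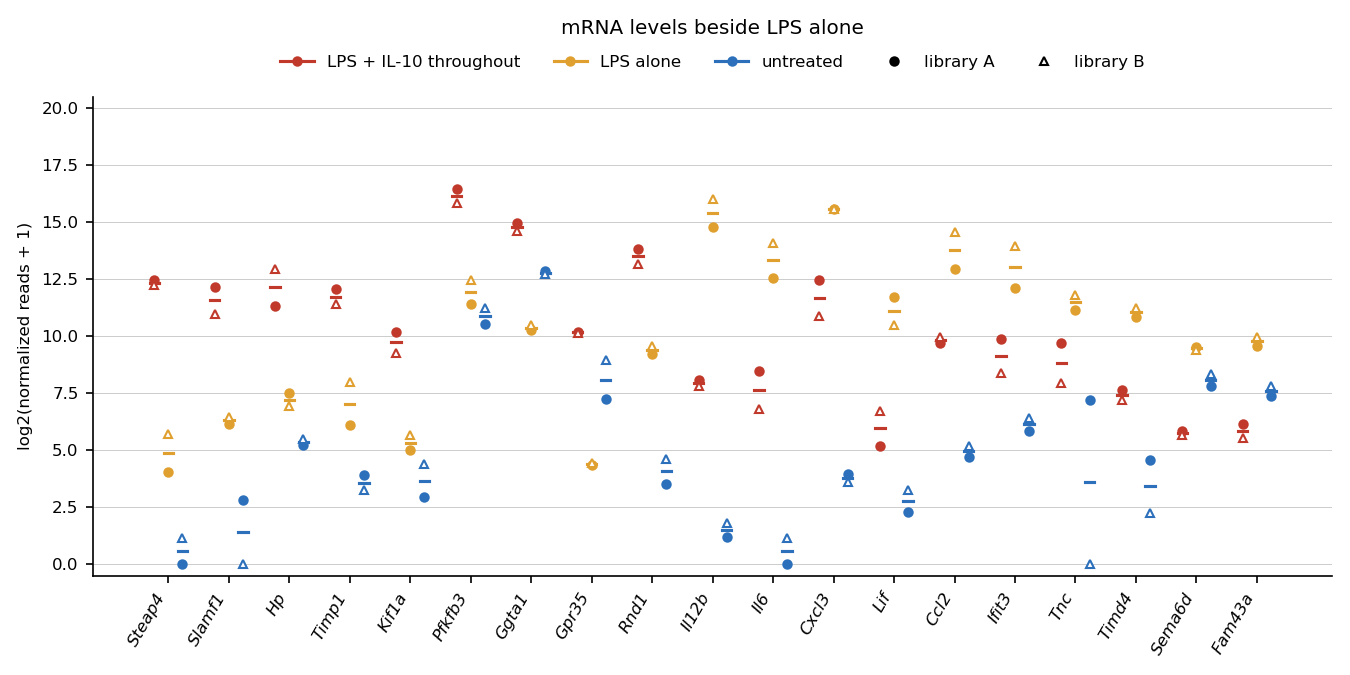
Normalized mRNA reads plus 1 on a log2 axis for 19 genes with IL-10 throughout, LPS alone and untreated, from left to right, with both libraries of each group shown. Steap4 has 5598 and 4925 reads with IL-10 throughout, 15.5 and 51.8 with LPS alone and 0 and 1.24 in untreated cells, while Il12b, at 28760 and 65670, is highest with LPS alone.

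The remaining groups held smaller or mixed changes. Cell cycle genes had 4 rises and 3 falls among 30 by mRNA, shares near the 14.2% and 11.6% of all genes, with a median of 0.15 that turned to −0.33 with total reads, −0.04 with the upper quartile and −0.32 without IL-10 library B, and 3 rises and 6 falls by pre-mRNA (median −0.13). Mki67, a proliferation marker, had 32020 and 28380 normalized reads with IL-10 throughout, against 2624 and 1372 in untreated cells (3.99 ± 0.31), and Ccnd2 (5.97) and the inhibitor gene Cdkn1a (3.06) rose, while E2f1 (−1.73), E2f2 (−2.44) and Mcm6 (−1.33) fell, none of them called without IL-10 library A. The mitotic genes Top2a (0.60) and Ccnb1 (0.67) did not pass. The mRNA falls became 0 without IL-10 library A and 1 without untreated library B, the pre-mRNA falls 2 without IL-10 library A or either untreated library, and the pre-mRNA rises 1 without IL-10 library A or untreated library A. AP-1 and immediate-early genes had 9 rises and 1 fall of 26 by mRNA (median 0.65) and 5 and 1 of 22 by pre-mRNA (median 0.62). Batf, which pairs with JUN proteins, had 3947 and 4537 normalized reads with IL-10 throughout, 851 and 699 with LPS alone and 56.2 and 145 in untreated cells (5.53 ± 0.42 above untreated). Maff (3.69), Junb (2.86) and Ier3 (3.81) rose, and Nr4a2 fell by 2.14, not called without IL-10 library A or untreated library B. Without IL-10 library B there were 2 mRNA falls, and the pre-mRNA fall was not called without any 1 of the 4.

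Inflammasome genes had 7 rises and 2 falls of 17 by mRNA (median 0.25, or −0.23 with total reads) and 7 and 1 by pre-mRNA (median 0.20, or −0.23 with total reads and −0.15 without untreated library B). The sensor gene Nlrp3 had 54130 and 47580 normalized reads with IL-10 throughout, against 3682 and 3869 in untreated cells (3.75 ± 0.20), and Casp4, the sensor of intracellular LPS (4.62), and Mefv, encoding pyrin (5.19), also rose. P2rx7 (−1.71) and Nlrp1b (−1.45) fell by mRNA. These falls became 0 without IL-10 library A or either untreated library and 1 without IL-10 library B, and the pre-mRNA fall became 0 without IL-10 library A or either untreated library. Complement and matrix genes had 9 rises and 1 fall of 25 by mRNA (median 0.54) and 9 and 5 by pre-mRNA (median 0.28, or −0.04 with total reads). Mmp14, a membrane-bound matrix protease, had 37050 and 36450 normalized reads against 222 and 206 (7.42 ± 0.17, adjusted p = 5.2e-06). Serpinb2 had 3666 and 1093 against 2.65 and 2.48, a ratio of 962 (442 to 2623). C3 (3.13) and Cfb (5.70) rose, though Cfb overlaps Gm20547 on the same strand, and the matrix glycoprotein gene Thbs1 fell by 4.09. Stimulated and untreated libraries did not overlap for Mmp14 and Serpinb2, as for 64.2% of all genes by mRNA. The fall of Thbs1 was not called without IL-10 library B or either untreated library, and without untreated library B another gene, Plau, was called as fallen, and the 5 pre-mRNA falls became 2 without IL-10 library A or untreated library A and 3 without untreated library B. Oxidative stress genes had 6 rises and 1 fall of 20 by mRNA (median 0.23, or −0.25 with total reads) and 8 and 1 by pre-mRNA (median 0.24, or −0.21). The mitochondrial superoxide dismutase gene Sod2 (5.08 ± 0.20) and the cystine transporter gene Slc7a11 (4.66) were the largest rises. The mRNA rises became 3 without IL-10 library A or untreated library B. The mRNA fall, of Gclc, was not called without any 1 of the 4 libraries, and without untreated library A another gene, Cat, was called as fallen, and the pre-mRNA fall, of Sod1, became 0 without IL-10 library A or either untreated library.

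Of 28 ribosomal protein genes 1 rose by mRNA (median 0.19, or −0.30 with total reads), and 14 rose by pre-mRNA (median 1.13). The 14 became 1 with total reads, 8 with the upper quartile, 4 without IL-10 library A or untreated library A, 6 without IL-10 library B and 8 without untreated library B. The mRNA rise became 0 without either IL-10 library or untreated library B, and without untreated library A 2 rose and 3 fell. Rpl4 had 10690 and 9540 normalized mRNA reads with IL-10 throughout, against 8334 and 11200 in untreated cells, and 741 and 697 normalized pre-mRNA reads against 205.1 and 249. The mRNA ranges overlapped and the pre-mRNA ranges did not. Ribosomal protein genes have many processed copies, among which reads may be shared. Proteasome genes had 8 rises of 25 by mRNA (median 0.71) and 9 by pre-mRNA (median 0.76). With total reads these counts were 1 and 3. They were 1 and 1 without IL-10 library A, 3 and 4 without IL-10 library B, 2 and 2 without untreated library A and 4 and 2 without untreated library B. Psma6 was the clearest, with 8753 and 6310 normalized mRNA reads against 1232 and 1321 (2.54 ± 0.22).

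All 10 macrophage markers checked were in the table, and their summed mRNA was 674800 and 648000 normalized reads with IL-10 throughout, against 520400 and 508900 in untreated cells. Of them Cd14 and Spi1 rose and Mertk fell. Of 12 neutrophil markers 7 were in the table and 3 rose, with sums of 2707 and 2138 against 1893 and 2607 that overlapped between groups, and the count was 0 without IL-10 library A, 1 without IL-10 library B and 5 without untreated library A. Of 10 dendritic cell markers 6 were in the table and 3 rose (Zbtb46, Ly75 and Ccr7, the last not called without either IL-10 library), with sums of 4758 and 3127 against 1370 and 2919. Of 10 T and NK cell markers 4 were in the table: Lck rose, Cd28 and Il7r fell (Il7r not called without IL-10 library B or either untreated library), and the sums were 7397 and 3433 against 19850 and 20910. None of 6 B cell markers was in the table. Genes very low with LPS are not in the table, so a missing marker does not give its level in untreated cells. The sums leave such markers out. The mast cell and megakaryocyte markers in the table did not pass (1 megakaryocyte marker rose without untreated library A), and of 4 stromal markers Pdgfra and Pdgfrb rose (Pdgfrb not called without IL-10 library A), with sums of 1338 and 1441 against 1346 and 2424. The sums for other cell types were small beside those of the macrophage markers, and the part of other cells in the results was not tested.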

How the data were processed

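The deposited data were 1 table of 11415 genes, with an mRNA and a pre-mRNA signal for each of 4 groups in 8 columns. Trim Galore, DESeq and mm10 are named by the authors, per the submitters' processing notes; the aligner, the read counter, its strand setting and the pre-mRNA rule are not stated. The deposited signal proved to be the mean of the normalized reads of 2 libraries, and the reads of both were recovered for 100% of values (largest relative error 5.84e-15), without replicate numbers. The smallest LPS mRNA count was 11, so the table leaves out genes that are low with LPS. The test was limma 3.58.1 (R 4.3.3, trend) on log2 of normalized reads plus 1, with group as its only term. Genes needed a mean of 1 or more, and the 8 libraries of a measure shared 1 estimate of the spread. The difference between measures came from 1 fit of 16 columns. That fit treated the 2 measures of the same RNA as independent, so its p-values ignore their pairing. The steps were tested on simulated data. The p-values measure the spread between the 2 libraries of a group. Intervals (95%, exact binomial) and the floor of 3 reads cover counting error only. Genes given in full are, per measure, the 10 largest rises and falls with at least 50 normalized reads and no overlap, the up to 4 most significant members of each list, 20 set genes, the 8 largest differences each way between measures and from LPS alone, and 8 shared by both measures. Other list members were named after their values were seen. Some genes that meet these rules are not reported here. Members and lists were chosen with earlier results of these data known. RefSeq (GRCm38.p6) names matched 11378 of 11415 genes. Alternatives covered scaling, pseudocount, filter, limma-voom, the libraries fitted and leaving out each library.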

Additional observations from a re-analysis of the deposited data

How the results depend on the processing

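The 2946 mRNA and 3204 pre-mRNA calls against untreated cells stayed within 1.5 times under the other scalings, pseudocounts, filters and limma settings, and became 1209 to 1891 and 1348 to 2188 when 1 library was left out. The 73 differences between measures became 48 with total-read scaling, 111 with no filter, 42 with no trend and robust variances, and 16 to 60 with 1 library left out. Against LPS alone, the 256 mRNA calls became 83 when only the groups compared were fitted and 43 to 85 with 1 library left out. The 746 pre-mRNA calls became 307 with no filter, 405 with no trend and robust variances, 289 with only the groups compared and 62 to 1152 with 1 library left out. The cause of these changes was not tested, beyond fewer samples entering the fits with 1 library left out or only the compared groups. Of 177 mRNA calls named, 144 were kept without any 1 of the 4 libraries and 160 under every other setting, and of 191 pre-mRNA calls 167 and 170. No called change of a gene named by the rule changed sign under these alternatives. The medians of several gene groups that lie near 0 did, as given beside them, and so did those of the oxidative phosphorylation genes by mRNA (0.08, against −0.11 with the upper quartile, −0.05 without IL-10 library A and −0.02 without untreated library A) and of the ribosomal protein genes by mRNA (0.19, against −0.01 without untreated library A). A library left out leaves a lone sample that is assumed to vary like the other groups. No paired analysis was possible because the deposited columns are group means and the recovered libraries carry no replicate number. Bounds or intervals are given for several genes with 9 reads or fewer in a group, since depth limits them. Other such genes, Shisa3 among them, are given without.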

Other observations

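G-protein-coupled receptor genes changed in both directions. By mRNA 13 of 30 rose and 7 fell, where 14.2% and 11.6% of all genes did. The mRNA median was 0.23, which turned to −0.25 with total-read scaling. By pre-mRNA 11 of 27 rose and 6 fell (median 0.26, or −0.19), where 14.1% and 14.7% of all genes did. Hcar2, the niacin receptor, had 7344 and 7134 normalized mRNA reads with IL-10 throughout, against 19.2 and 19.9 in untreated cells (8.46 ± 0.16, adjusted p = 3.5e-06 by limma). Adora2a, an adenosine receptor, had 3808 and 3472 against 2.65 and 13.7 (8.96 ± 0.57). The formyl peptide receptor gene Fpr2, which overlaps Fpr3 on the same strand, had 5037 and 5214 against 7.28 and 18.6 (8.65). The groups were far apart for each. The chemokine receptor gene Cxcr4 (−4.27) and the sphingosine phosphate receptor gene S1pr1 (−2.79) fell, Cxcr4 not called without IL-10 library A or either untreated library. The 7 mRNA falls became 4 without IL-10 library A or untreated library B and 3 without untreated library A.

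BCL2 family and apoptosis genes had 9 rises and 2 falls of 22 by mRNA (median 0.70) and 7 and 2 by pre-mRNA (median 0.65). Among all genes 14.2% rose and 11.6% fell by mRNA, and 14.1% and 14.7% by pre-mRNA. Bcl2a1a, a survival gene with near-identical copies among which reads may be shared, had 275.2 and 152 normalized mRNA reads with IL-10 throughout and no read in untreated cells, which makes it at least 169-fold higher. The caspase 8 inhibitor gene Cflar (3.93) and the death receptor gene Fas (3.95) rose, while Bmf, which promotes cell death, fell by 4.15. The 9 mRNA rises became 5 without IL-10 library A or untreated library A, and the 2 falls became 1 without any 1 of the 4 libraries. The 7 pre-mRNA rises became 4 without IL-10 library A or either untreated library, and the 2 falls became 0 without those libraries and 1 without IL-10 library B.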
